A study of Mus musculus and Homo sapiens with 20 samples.

Results

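The genes described are 9 members of the NRF2 antioxidant pathway: the transcription factor gene NFE2L2 (which encodes NRF2), its inhibitor KEAP1, and the targets GCLC, GCLM, TXNRD1, SRXN1, HMOX1, NQO1 and ME1. They were chosen by name, as the rows whose gene symbol equals a member in either letter case, and all 9 were found among 63568 genes of the human table and among 43626 genes of each mouse table. RNA-seq read counts were compared within 3 cell lines between libraries treated with the HSP90 inhibitor NVP-AUY922 (HSP90i) and Control libraries, which the count tables name for the solvent DMSO. K562 is a human chronic myeloid leukaemia line and received 300 nM, MEF are mouse embryonic fibroblasts and received 200 nM, and HPC-7 is a mouse blood precursor line and received 50 nM, each for 16 h, with 3 HSP90i and 3 Control libraries per line. No genetic change was given in the labels for any group. Line, species and dose changed together and cannot be told apart between lines, and since the labels give no origin for the replicates, the p-values cover only the spread between these libraries, which may be technical.

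Under resting conditions KEAP1 holds NRF2 in the cytosol and presents it to a ubiquitin ligase built on CUL3, so that NRF2 is degraded. Electrophiles and oxidants modify KEAP1, NRF2 accumulates, pairs with a small MAF protein and binds antioxidant response elements, while BACH1 binds related elements as a repressor. The targets make glutathione (GCLC, GCLM), reduce thioredoxin and peroxiredoxins (TXNRD1, SRXN1), degrade haem (HMOX1), reduce quinones (NQO1) and regenerate NADPH (ME1). NRF2 is controlled mostly at the level of protein, which was not measured here.

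The start regions of the mouse genes are shown because NRF2 acts through short elements in DNA. RefSeq (build GRCm38.p6) gave windows of 250 bases before a start for 7 of the 9 mouse members, and bases inside the annotated gene were left out, which shortened that of Gclm. Both strands were searched for TGACNNNGC, the core of the antioxidant response element, and for TGAGNNNGC, a related form that differs in its last fixed base before the gap and so cannot match at the same place. Of 32851 RefSeq windows of the full length, 10.2% held the first form, 14.4% the second and 23.0% either. The windows of Srxn1, Gclm and Nfe2l2 held matches, in capitals below, and those of Nqo1, Me1, Keap1 and Txnrd1 held none in these letters. The match TGAGTCAGC of Srxn1 began 45 bases before the start, on the strand of the gene, and its other match lay on the opposite strand. Srxn1 and Gclm, whose values follow, are target genes, and Nfe2l2 is the gene of the factor itself. A match is a description of the letters, not a measured site.
Srxn1, chr2:152105274-152105523, plus strand: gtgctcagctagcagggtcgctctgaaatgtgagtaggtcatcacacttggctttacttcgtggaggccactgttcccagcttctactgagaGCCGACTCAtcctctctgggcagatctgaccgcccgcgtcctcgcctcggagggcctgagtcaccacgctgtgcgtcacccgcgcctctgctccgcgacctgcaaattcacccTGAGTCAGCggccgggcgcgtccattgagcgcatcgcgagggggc
Gclm, chr3:122245307-122245486, plus strand: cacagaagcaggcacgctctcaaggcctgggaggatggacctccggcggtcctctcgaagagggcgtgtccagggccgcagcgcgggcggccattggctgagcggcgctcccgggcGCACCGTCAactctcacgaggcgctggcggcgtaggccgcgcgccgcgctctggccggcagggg
Nfe2l2, chr2:75704664-75704913, minus strand: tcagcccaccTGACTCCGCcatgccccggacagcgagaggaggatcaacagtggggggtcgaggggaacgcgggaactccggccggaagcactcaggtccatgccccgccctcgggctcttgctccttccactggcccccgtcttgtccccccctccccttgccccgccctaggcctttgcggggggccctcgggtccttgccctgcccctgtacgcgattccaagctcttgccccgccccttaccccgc

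Each HPC-7 library held 10131491 to 16859394 counts, each MEF library 10542305 to 22872539 and each K562 library 7936066 to 10950573. Levels are CPM, counts relative to the library size after TMM scaling within each table, and are not compared between genes. Errors are the SD of 3 libraries for levels and the standard error (SE) for log2 fold changes. Genes were called at an adjusted p under 0.05 by the quasi-likelihood method of edgeR, adjusted (Benjamini-Hochberg) over all genes tested in the line, and every adjusted p below is from that test unless another is named. HSPA8, a constitutive HSP70 gene that rises when HSP90 is inhibited, averaged 4273 CPM in HSP90i and 284 CPM in Control K562, 9158 CPM in HSP90i and 1596 CPM in Control MEF, and 3970 CPM in HSP90i and 1314 CPM in Control HPC-7. The markers listed for each line were detected, though some were also found in another line. Summed levels of the 5 K562 markers were 1519 to 1715 CPM in HSP90i and 1722 to 1904 CPM in Control K562. The 5 fibroblast markers summed to 18451 to 19017 CPM in HSP90i and 12892 to 13202 CPM in Control MEF, and the 5 blood precursor markers to 3320.4 to 3688 CPM in HSP90i and 1979 to 2009 CPM in Control HPC-7. Within that last sum Kit averaged 2522 CPM in HSP90i and 987 CPM in Control libraries. In contrast, Cd34 averaged 56.7 CPM in HSP90i and 342 CPM in Control libraries (adjusted p = 8.37e-05, log2 fold change -2.60 ± 0.35). Among the fibroblast markers in MEF, Col1a1, Col1a2 and Col3a1 were called higher. Pdgfrb and Thy1 were called lower there, both at a log2 fold change of -0.66. In HPC-7, Pdgfrb averaged 293 CPM in HSP90i and 192 CPM in Control libraries and was called higher. The blood precursor marker Cd34 averaged 156 CPM in HSP90i and 181 CPM in Control MEF. Kit had 11 counts in HSP90i replicate 3 and 77 counts in Control replicate 3 of MEF, and at most 2 counts in any other MEF library. Of the K562 markers only GATA1 was called, with 107 CPM in HSP90i and 199 CPM in Control libraries (-0.90 ± 0.22). Markers of epithelium, endothelium, T cells and macrophages summed to 9.26 to 10.3 CPM in HSP90i and 2.38 to 3.03 CPM in Control MEF, with 1 of the 6 in the table at 3 counts or fewer in every library, and to 52.7 to 64.8 CPM in HSP90i and 37.5 to 52.1 CPM in Control K562, with 4 of 6 so low. Their part in the results was not tested. These were bulk samples, in which fewer cells of a type and less RNA per cell cannot be told apart.

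Called members and their directions differed from line to line in number, with falls prevailing in MEF and rises in HPC-7. In MEF, 2 of the 9 members were higher and 6 lower after HSP90 inhibition, among a background of 73.4% of all tested genes called, 35.1% higher and 38.2% lower. In HPC-7, 3 of 7 tested members were higher and 1 lower, against 73.1% of all tested genes called, 36.5% higher and 36.6% lower. In K562, 2 of 7 tested members were higher and 0 lower, against 11.1% called, 5.11% higher and 5.97% lower. At an unadjusted p under 0.05 edgeR also gave 2 higher and 0 lower in K562, as did DESeq2 with adjustment. The K562 count was 2 higher and 2 lower without Control replicate 1, 1 higher without Control replicate 2 or 3, and 0 without HSP90i replicate 1, 2 or 3. With 7 to 9 members and so many genes called in the mouse lines, these shares say little about the members as a set, and the description rests on single genes. The median log2 fold change over the tested members was -0.63 in MEF, 0.38 in HPC-7 and -0.07 in K562, beside -0.01, -0.00 and -0.02 over all genes tested. The HSP90i and Control ranges were separate for 8 of 9 members in MEF, 5 of 7 in HPC-7 and 2 of 7 in K562, beside 76.2%, 77.4% and 35.2% of all tested genes.

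**Figure D1:**
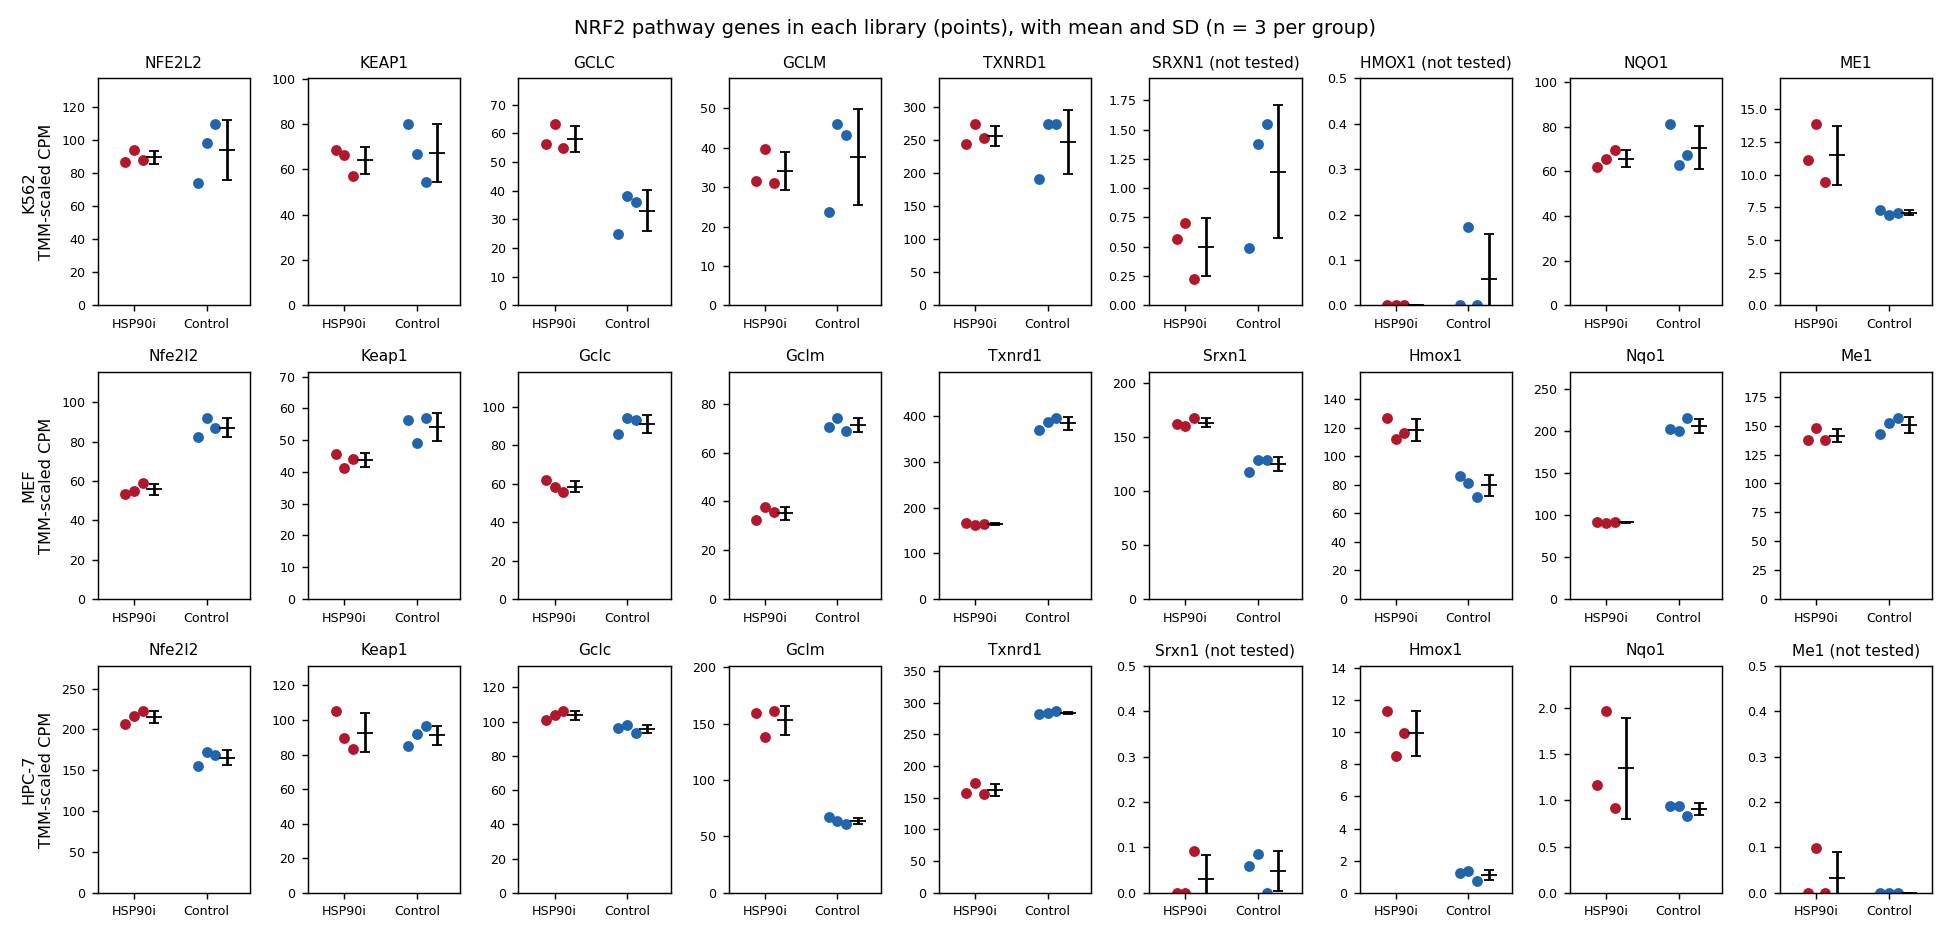
TMM-scaled CPM of the 9 genes (columns) in each library of K562, MEF and HPC-7 (rows), HSP90i in red on the left and Control in blue on the right, with the mean and SD of 3 libraries beside the points; each panel has its own axis from 0. Gclm lies lower in HSP90i than in Control MEF (means of 35.2 and 71.2 CPM) and higher in HSP90i than in Control HPC-7 (means of 153 and 64.0 CPM).

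Nfe2l2, the gene of NRF2, fell in MEF and rose in HPC-7, while Keap1, the gene of its inhibitor, was called in MEF alone. Nfe2l2 (chr2:75675513-75704663, GRCm38.p6) had 53.4, 54.7 and 59.0 CPM in HSP90i MEF, against 82.4, 92.2 and 86.7 CPM in Control MEF. All treated values lay below all control values, and the log2 fold change was -0.64 ± 0.06 (SE, n = 3 per group, edgeR adjusted p = 2.16e-05). In HPC-7 the same gene had 207, 216 and 222 CPM in HSP90i libraries and 155, 172 and 169 CPM in Control libraries. Here all treated values lay above all controls, with a log2 fold change of 0.38 ± 0.07 (edgeR adjusted p = 7.06e-04). In K562, NFE2L2 had 86.8, 93.6 and 87.6 CPM in HSP90i libraries and 74.0, 98.0 and 109.7 CPM in Control libraries, which overlapped (-0.07 ± 0.16, edgeR adjusted p = 0.82).

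Keap1 (chr9:21229730-21239332) had 45.6, 41.3 and 44.2 CPM in HSP90i MEF and 56.4, 49.2 and 57.1 CPM in Control MEF, without overlap. Its log2 fold change of -0.31 ± 0.07 was called within the line (edgeR adjusted p = 0.00446) but not in the fit over all 12 mouse libraries (-0.20, adjusted p = 0.0954). In HPC-7, Keap1 had 105, 89.7 and 83.0 CPM in HSP90i and 85.1, 91.8 and 96.3 CPM in Control libraries, and the groups overlapped (0.03 ± 0.10, edgeR adjusted p = 0.821). KEAP1 in K562 had 68.6, 66.3 and 57.3 CPM in HSP90i and 80.2, 66.8 and 54.5 CPM in Control libraries, which overlapped as well (-0.07 ± 0.17, edgeR adjusted p = 0.831).

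GCLC and GCLM encode the catalytic and the modifier subunit of glutamate-cysteine ligase, the rate-limiting enzyme of glutathione synthesis, and the ratio of the pair in HSP90i libraries did not overlap that in Control libraries in any line. Gclm (chr3:122245487-122267215, a span shared with the lncRNA gene Gm46822 and the pseudogene Gm6061) had 160.0, 138 and 161 CPM in HSP90i HPC-7 and 66.9, 63.8 and 61.3 CPM in Control HPC-7. Every treated library was above every control, and the log2 fold change was 1.26 ± 0.08 (edgeR adjusted p = 1.05e-06). Gclc (chr9:77754535-77794489) in HPC-7 had 101, 104 and 106 CPM in HSP90i libraries and 96.5, 97.9 and 93.1 CPM in Control libraries. These did not overlap either, but the change of 0.11 ± 0.07 was not called (edgeR adjusted p = 0.153), except with upper quartile scaling (0.17, adjusted p = 0.044).

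In MEF, both subunits fell. Gclm had 32.4, 37.6 and 35.6 CPM in HSP90i and 70.5, 74.4 and 68.9 CPM in Control libraries, a log2 fold change of -1.02 ± 0.07 (edgeR adjusted p = 1.84e-06). Gclc had 61.6, 58.2 and 55.6 CPM in HSP90i and 85.6, 94.3 and 93.0 CPM in Control libraries, a log2 fold change of -0.63 ± 0.06 (edgeR adjusted p = 2.00e-05). Treated and control values did not overlap for either gene.

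In K562, GCLC had the larger of the 2 called changes. It had 56.1, 63.3 and 55.0 CPM in HSP90i and 24.8, 38.0 and 36.0 CPM in Control libraries, without overlap and with Control replicate 1 lowest. Its log2 fold change was 0.82 ± 0.18 (edgeR adjusted p = 0.0236). The call was lost without HSP90i replicate 1, 2 or 3 (adjusted p = 0.091, 0.117 and 0.083) and with library size alone (adjusted p = 0.0527). GCLM had 31.6, 39.7 and 31.0 CPM in HSP90i and 23.7, 46.1 and 43.3 CPM in Control libraries, and the groups overlapped, with Control replicate 1 below every treated library (-0.14 ± 0.24, edgeR adjusted p = 0.761). Without that library the change of GCLM was -0.39 (adjusted p = 0.0241). Control replicate 1 also had the lowest control level of NFE2L2, TXNRD1 and SRXN1, with 74.0, 191 and 0.492 CPM, but the highest control level of NQO1, KEAP1 and ME1, with 81.3, 80.2 and 7.28 CPM.

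The ratio of GCLM to GCLC counts within a library needs no scaling factor. This ratio was chosen after the values of the subunits had been seen. It was 1.59, 1.33 and 1.53 in HSP90i HPC-7 and 0.693, 0.652 and 0.658 in Control HPC-7, with means of 1.48 ± 0.138 and 0.668 ± 0.0221 (SD). In K562 it was 0.564, 0.627 and 0.564 in HSP90i and 0.956, 1.21 and 1.20 in Control libraries, and in MEF 0.526, 0.646 and 0.640 in HSP90i and 0.824, 0.788 and 0.740 in Control libraries. The treated ratio was above every control in HPC-7 and below every control in K562 and MEF, with log2 differences (HSP90i minus Control) of 1.15, -0.94 and -0.38. The exact permutation test, two-sided, gave p = 0.1 in each line, which is the smallest p that 3 libraries against 3 allow. Since the groups were separate, leaving out any 1 library could not change a direction. The log2 differences then ran from 1.09 to 1.22 in HPC-7, from -1.05 to -0.88 in K562 and from -0.43 to -0.28 in MEF.

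**Figure D2:**
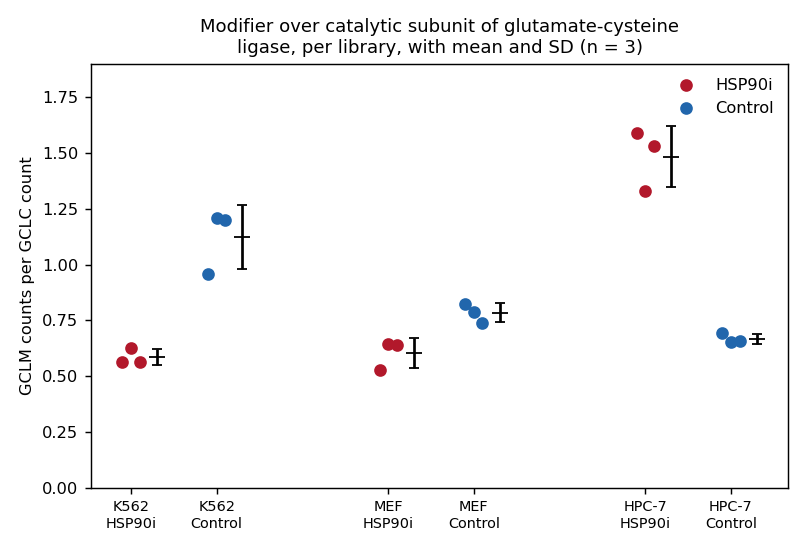
Counts of GCLM per count of GCLC in each library, HSP90i in red left of Control in blue for each line, with the mean and SD of 3 libraries. The ratio averaged 1.48 in HSP90i and 0.668 in Control HPC-7, but 0.585 in HSP90i and 1.12 in Control K562.

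TXNRD1 encodes the cytosolic thioredoxin reductase, a selenoprotein that keeps thioredoxin reduced with electrons from NADPH, and its mouse gene fell in both mouse lines. Txnrd1 (chr10:82833951-82897724) had 166, 163 and 164 CPM in HSP90i MEF and 369, 388 and 397 CPM in Control MEF, a log2 fold change of -1.23 ± 0.04 (edgeR adjusted p = 5.61e-08). In HPC-7 it had 158, 173 and 156 CPM in HSP90i and 282, 283 and 286 CPM in Control libraries, a change of -0.81 ± 0.07 (edgeR adjusted p = 4.03e-06). No treated library reached a control library in either line. TXNRD1 in K562 had 244, 274 and 253 CPM in HSP90i and 191, 275 and 275 CPM in Control libraries, which overlapped (0.06 ± 0.16, edgeR adjusted p = 0.857). The span of Txnrd1 also holds Eid3 and the lncRNA gene Gm38560. Whether reads were counted by strand is not stated, so those of overlapping genes could be shared.

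SRXN1 encodes sulfiredoxin, which repairs over-oxidised peroxiredoxins, and it rose in MEF, the only line where it passed the filter on low counts. Srxn1 (chr2:152105524-152111376) had 162, 160.0 and 168 CPM in HSP90i MEF and 118, 129 and 129 CPM in Control MEF, without overlap (0.38 ± 0.05, edgeR adjusted p = 1.60e-04). Srxn1 was thus higher in the HSP90i libraries in which Txnrd1 was lower. In HPC-7 it had at most 1 count in any library, below the limit of 3 counts, or 0.178 to 0.296 CPM, that a count of 0 allows. In K562, SRXN1 had 6, 7 and 2 counts in HSP90i and 5, 16 and 13 counts in Control libraries and did not pass the filter. It passed without Control replicate 1, where its log2 fold change was -1.50 ± 0.45 (edgeR adjusted p = 0.024). It also passed without HSP90i replicate 1, 2 or 3 (-1.24, -1.45 and -0.83) and with no filter (-1.12), where it was not called (edgeR adjusted p = 0.38, 0.303, 0.5 and 0.217).

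HMOX1 encodes the inducible haem oxygenase, which opens the haem ring and releases iron, carbon monoxide and biliverdin. Its change in HPC-7 was the largest among the tested members of the 3 lines. Hmox1 (chr8:75093618-75100593) had 11.3, 8.52 and 9.96 CPM in HSP90i HPC-7, from 156, 87 and 109 counts, against 1.23, 1.37 and 0.751 CPM in Control HPC-7, from 21, 16 and 9 counts. The groups were far apart, and the log2 fold change was 3.14 ± 0.22, or 8.79-fold (edgeR adjusted p = 1.60e-06). In MEF, where the gene was more abundant, it had 127, 112 and 116 CPM in HSP90i and 86.4, 80.9 and 71.4 CPM in Control libraries. That rise was 0.57 ± 0.08 on the log2 scale, or 1.48-fold, again without overlap (edgeR adjusted p = 2.00e-04). The order of the 4 mouse groups was thus HSP90i MEF, Control MEF, HSP90i HPC-7 and Control HPC-7, with no overlap between neighbours, in levels scaled separately for each table. In K562, HMOX1 had 0 counts in every HSP90i library and 0, 2 and 0 counts in Control libraries, under the limit of 3 counts, or 0.274 to 0.378 CPM, and no change could be detected at this depth.

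NQO1 encodes a quinone reductase often used as a readout of NRF2 activity. Nqo1 (chr8:107388225-107403205) had 91.2, 91.0 and 91.5 CPM in HSP90i MEF and 203, 199.7 and 216 CPM in Control MEF. The treated libraries lay close together and far below the controls, and the log2 fold change was -1.18 ± 0.05 (edgeR adjusted p = 1.02e-07). In HPC-7 it was low, with 16, 20 and 10 counts in HSP90i and 16, 11 and 10 counts in Control libraries, and its change was not called (0.54 ± 0.33, edgeR adjusted p = 0.164). NQO1 in K562 had 61.9, 65.7 and 69.6 CPM in HSP90i and 81.3, 62.9 and 67.4 CPM in Control libraries, which overlapped (-0.10 ± 0.14, edgeR adjusted p = 0.697).

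ME1 encodes the cytosolic malic enzyme, a source of NADPH. ME1 had 11.1, 13.9 and 9.45 CPM in HSP90i K562 and 7.28, 6.90 and 7.05 CPM in Control K562. The groups did not overlap, and the log2 fold change of 0.70 ± 0.19 lay just inside the threshold (edgeR adjusted p = 0.0498). The adjusted p was 0.149 and 0.0698 without Control replicate 2 or 3, and 0.153, 0.191 and 0.0837 when HSP90i replicate 1, 2 or 3 was left out. The call was also lost with library size alone or upper quartile scaling (adjusted p = 0.0734 and 0.0687). Me1 (chr9:86581363-86695914, a span shared with the lncRNA gene A330041J22Rik) had 138, 148 and 138 CPM in HSP90i MEF and 143, 152 and 157 CPM in Control MEF, which overlapped (-0.09 ± 0.05, edgeR adjusted p = 0.155). In HPC-7, Me1 had a single count in HSP90i replicate 2 and 0 counts elsewhere, again under the limit of 3 counts.

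**Figure D3:**
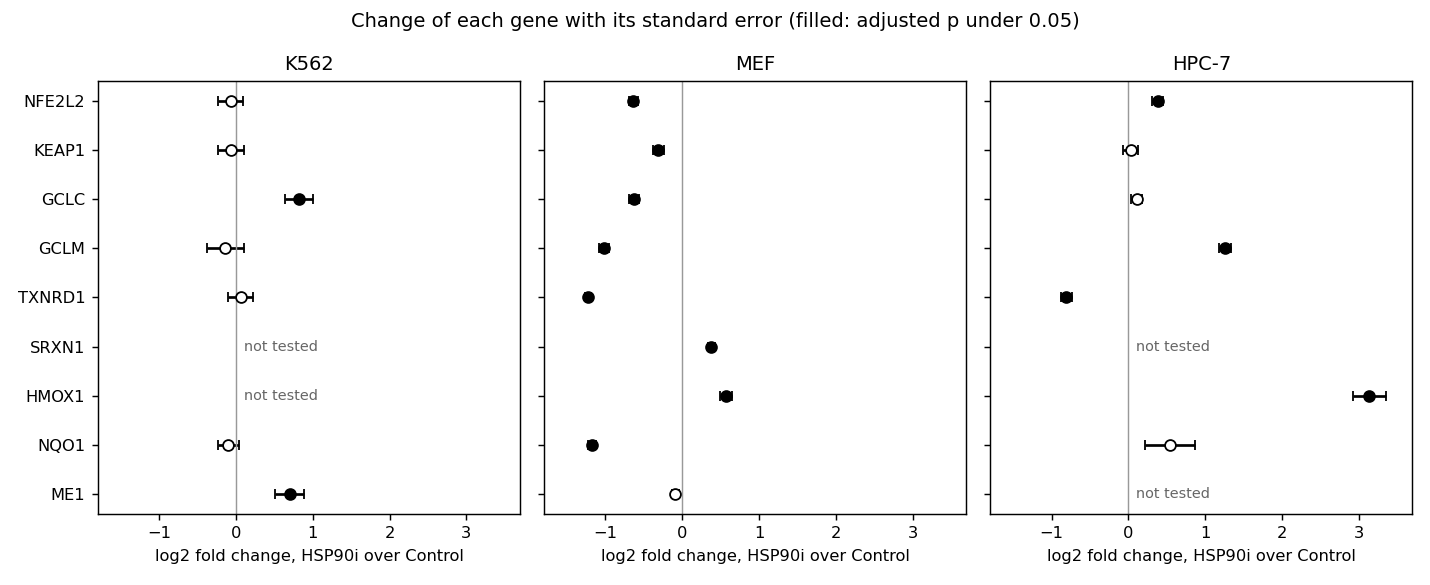
Log2 fold change of HSP90i over Control for each of the 9 genes in K562, MEF and HPC-7, with its standard error; filled points have an adjusted p under 0.05. Hmox1 in HPC-7 stands at 3.14, and GCLM lies at -1.02 in MEF and 1.26 in HPC-7.

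An interaction of line and treatment over the 12 mouse libraries tested whether the 7 members tested in both lines responded by different amounts. Of these, 6 differed, all with a lower log2 fold change in MEF than in HPC-7, beside 43.2% of all tested genes, 17.8% in that direction and 25.4% in the other. The difference (MEF minus HPC-7) was -2.45 ± 0.22 for Hmox1 (edgeR adjusted p = 9.50e-07), a gene that rose in both lines. It was -2.16 ± 0.11 for Gclm (edgeR adjusted p = 4.60e-09) and -0.90 ± 0.09 for Nfe2l2 (edgeR adjusted p = 2.57e-06), which moved in opposite directions. It was -1.59 ± 0.28 for Nqo1, -0.63 ± 0.09 for Gclc and -0.30 ± 0.08 for Txnrd1 (edgeR adjusted p = 3.34e-04, 6.77e-05 and 0.0102), the last of which fell in both. Keap1 was not called (-0.22 ± 0.14, edgeR adjusted p = 0.227), but was without HPC-7 Control replicate 2 (-0.43, adjusted p = 0.0367) or HPC-7 Control replicate 3 (-0.47, adjusted p = 0.0227). The scaling over 12 libraries put the median difference of all genes at 0.11, with 58.8% of called genes higher in MEF, against 47.3% with RLE factors, which put it at -0.01. Line and dose cannot be told apart in this test.

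Among 46 other genes of the pathway, 20 were higher and 21 lower of 45 tested in MEF (median -0.01), 14 higher and 15 lower of 41 tested in HPC-7 (median 0.02), and 5 higher and 1 lower of 43 tested in K562 (median -0.09). These are 91.1%, 70.7% and 14% called, beside 73.4%, 73.1% and 11.1% of all genes tested in MEF, HPC-7 and K562, so the shares in HPC-7 and K562 lay near the background. The role groups below hold 4 to 11 tested genes each, and their counts are a description to be read against the same background. The K562 count was 12 higher and 5 lower without Control replicate 1, and 2 higher and 1 lower without HSP90i replicate 1, 2 or 3. Several genes named in the following paragraphs were chosen after their values had been seen. Of all 55 genes, 3 were called in all 3 lines and 2 of these in the same direction, GLRX being the third. The share of all tested genes called in all 3 lines is not given here, so this count says little about the pathway. MAFF, a small MAF partner of NRF2, fell in every line, to 12.9 ± 0.736 CPM in HSP90i K562, against 31.4 ± 2.56 CPM in Control K562, and by 3.25 and 0.91 on the log2 scale in MEF and HPC-7. OSGIN1, an oxidative stress-induced growth inhibitor, rose in every line, with 9.30 ± 0.800 CPM in HSP90i and 2.87 ± 0.434 CPM in Control K562 (1.70 ± 0.20) and log2 fold changes of 0.52 ± 0.07 in MEF and 1.44 ± 0.24 in HPC-7.

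Regulators other than the members numbered 5 higher and 4 lower of 10 tested in MEF and 7 higher and 4 lower of 11 in HPC-7, with median log2 fold changes of 0.08 and 0.50. All genes tested had 35.1% higher and 38.2% lower in MEF and 36.5% higher and 36.6% lower in HPC-7. The small MAF genes Mafg and Mafk fell in MEF and rose in HPC-7. Mafg had 39.7, 43.5 and 34.7 CPM in HSP90i and 74.8, 80.1 and 80.8 CPM in Control MEF (edgeR adjusted p = 6.81e-06), but averaged 171 ± 17.7 CPM in HSP90i and 113 ± 2.14 CPM in Control HPC-7 (0.60 ± 0.08). Mafk changed by -0.41 ± 0.09 in MEF and by 1.13 ± 0.09 in HPC-7 on the log2 scale. The repressor gene Bach1 rose in both mouse lines, with 138 ± 1.79 CPM in HSP90i and 64.7 ± 3.66 CPM in Control MEF (1.10 ± 0.05) and 343 ± 39.3 CPM in HSP90i and 99.1 ± 0.0894 CPM in Control HPC-7 (1.79 ± 0.09). Hmox1, a gene that BACH1 is known to repress, rose in the same libraries. Its relative Bach2 changed by -1.67 ± 0.16 in MEF and by 2.02 ± 0.35 in HPC-7, with group means of at most 4.96 CPM. Sqstm1, whose product p62 sequesters KEAP1, rose by 0.95 ± 0.05 in MEF and by 1.49 ± 0.09 in HPC-7.

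**Figure D4:**
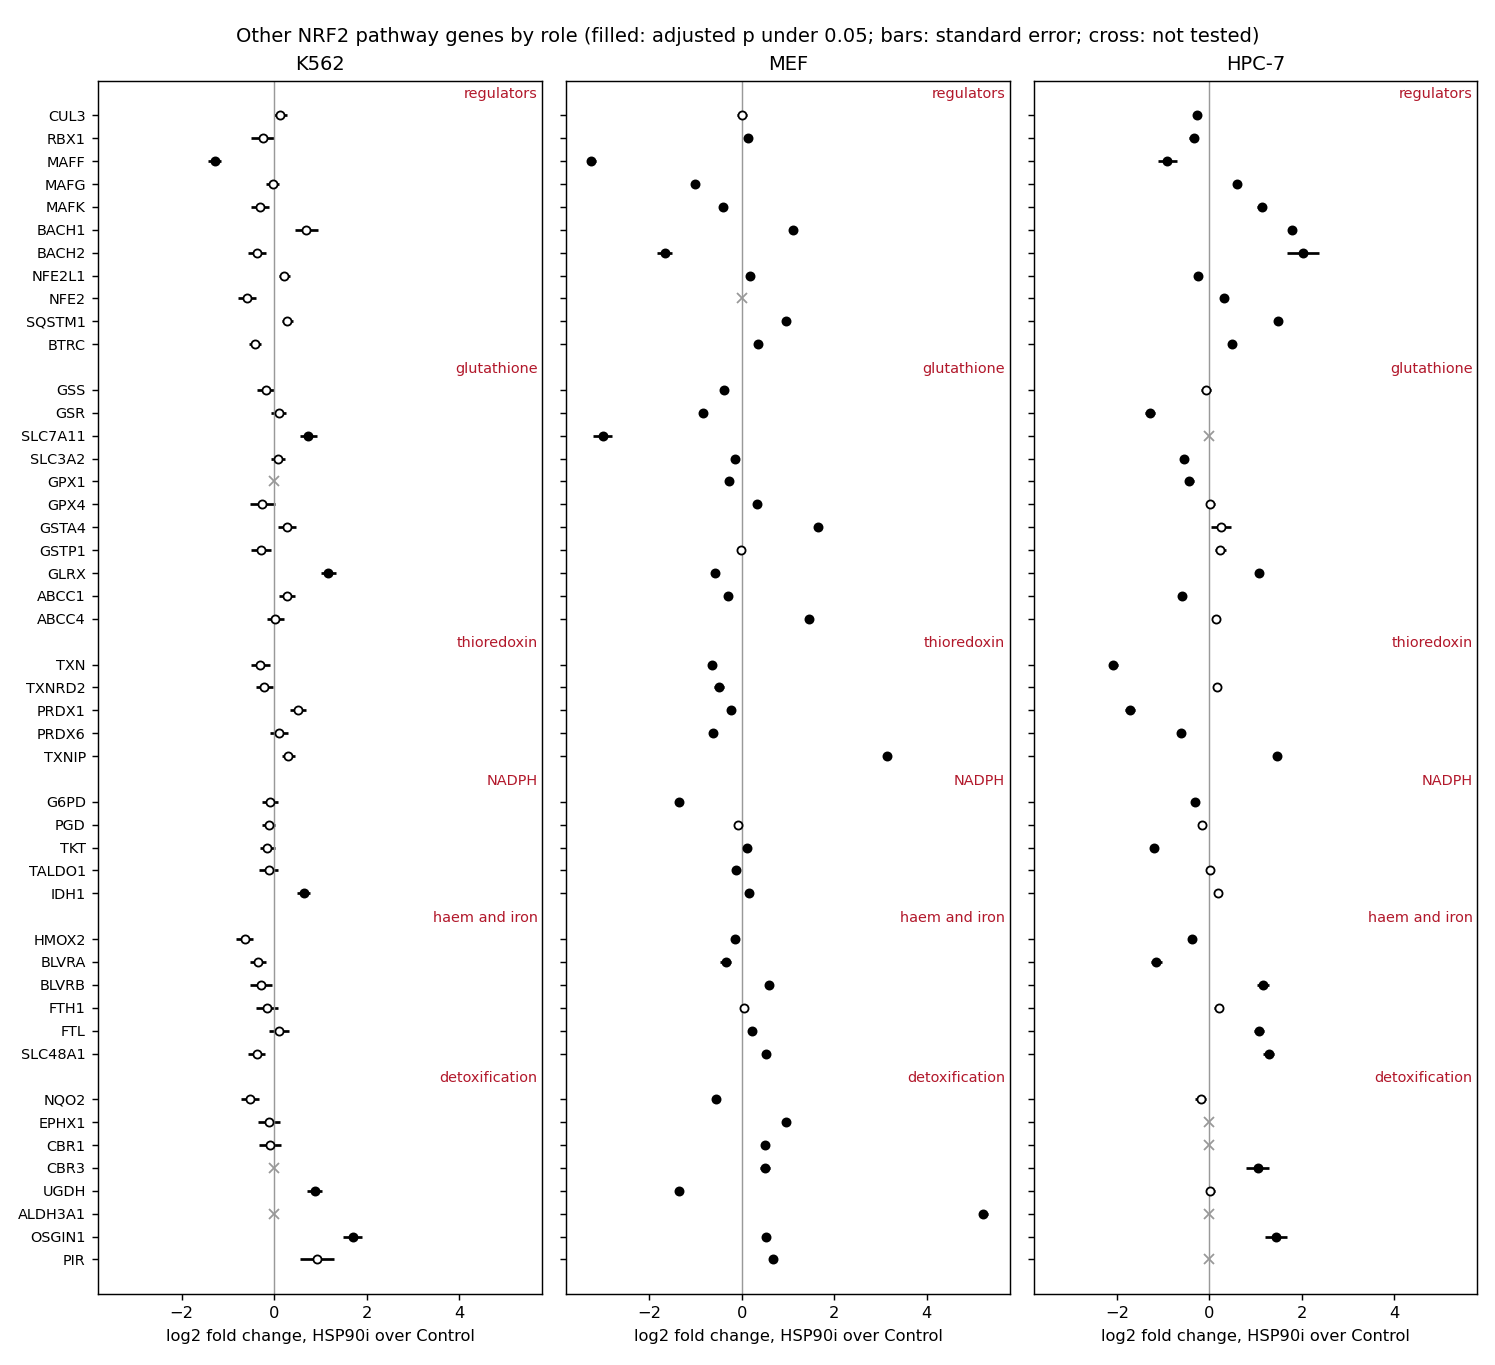
Log2 fold change of HSP90i over Control for 46 other pathway genes grouped by role, in K562, MEF and HPC-7, with the standard error; filled points have an adjusted p under 0.05 and crosses were not tested. Bach1 and Sqstm1 lie right of 0 in both mouse lines, while Mafg and Mafk lie left of 0 in MEF and right of 0 in HPC-7.

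Genes of the thioredoxin system had 1 higher and 4 lower of 5 tested in MEF and 1 higher and 3 lower of 5 in HPC-7, with medians of -0.49 and -0.62, beside 38.2% and 36.6% of all tested genes lower. In both mouse lines the higher gene was Txnip, which encodes an inhibitor of thioredoxin. Txnip averaged 172 ± 4.21 CPM in HSP90i and 19.6 ± 0.682 CPM in Control MEF (3.14 ± 0.05) and 719 ± 65.1 CPM in HSP90i and 260.5 ± 10.9 CPM in Control HPC-7 (1.46 ± 0.08). Thioredoxin itself, Txn1, fell by 0.64 in MEF and by 2.08 in HPC-7 on the log2 scale, to 77.0, 92.2 and 68.6 CPM in HSP90i HPC-7, against 335, 334 and 335 CPM in Control HPC-7. The peroxiredoxin gene Prdx1 changed by -1.71 ± 0.11 in HPC-7 and by -0.23 ± 0.05 in MEF, where its call was lost with upper quartile scaling (adjusted p = 0.0956) and in the joint mouse fit (adjusted p = 0.29).

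Haem and iron genes, listed beside Hmox1, had 3 higher and 2 lower of 6 tested in each mouse line, with medians of 0.14 in MEF and 0.64 in HPC-7, and 83.3% called beside 73.4% and 73.1% of all tested genes. Blvrb, a biliverdin reductase gene, rose by 0.59 ± 0.06 in MEF and by 1.17 ± 0.13 in HPC-7. Ftl1, the ferritin light chain, averaged 1815 ± 237 CPM in HSP90i and 857 ± 85.6 CPM in Control HPC-7 (1.08 ± 0.11), and changed by 0.22 ± 0.06 in MEF, where the call was lost without HSP90i replicate 2 (adjusted p = 0.0562). The haem transporter gene Slc48a1 rose by 0.53 ± 0.06 in MEF and by 1.28 ± 0.11 in HPC-7. The lower genes were Blvra, the other biliverdin reductase gene, and Hmox2, the constitutive haem oxygenase. Blvra changed by -0.35 ± 0.11 in MEF and by -1.15 ± 0.12 in HPC-7. Without Control replicate 3, Blvra in MEF stood at -0.20 (adjusted p = 0.0595). Hmox2 in MEF (-0.15) lost its call in 12 of 14 alternatives, RLE and upper quartile factors and DESeq2 among them (adjusted p = 0.109, 0.534 and 0.307), and Blvra in 4 of 14. Haem and iron genes called in MEF numbered 3, 2 and 3 without Control replicate 3, without HSP90i replicate 2 and in the joint mouse fit. The 3 K562 marker genes in the mouse tables summed to 158 to 172 CPM in HSP90i and 414 to 419 CPM in Control HPC-7. Pecam1, listed as an endothelial marker, was at 46.0 CPM in HSP90i and 8.52 CPM in Control HPC-7. Cdh5, the other endothelial marker listed, had 1, 0 and 1 counts in HSP90i HPC-7 and 0 counts in every Control HPC-7 library. Pecam1 alone therefore does not identify endothelial cells here. The markers of other cells summed to 42.4 to 54.2 CPM in HSP90i and 11.1 to 12.9 CPM in Control HPC-7, with 4 of the 6 in the table at 3 counts or fewer in every library, and the part of both lists in the result was not tested.

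Glutathione genes other than the ligase had 3 higher and 7 lower of 11 tested in MEF and 1 higher and 4 lower of 10 in HPC-7, with medians of -0.28 and -0.03, and 90.9% and 50% called beside 73.4% and 73.1% of all tested genes. Slc3a2, counted as lower in MEF (-0.14 ± 0.04), lost its call in 10 of 14 alternatives. RLE factors, upper quartile factors and DESeq2 were among them (adjusted p = 0.0895, 0.597 and 0.149). Slc7a11, the cystine importer that supplies glutathione synthesis, fell to 1.68 ± 0.180 CPM (SD) in HSP90i MEF, against 16.2, 12.2 and 10.7 CPM in Control MEF (-3.01 ± 0.21). In K562, SLC7A11 averaged 497 ± 27.9 CPM in HSP90i and 297 ± 76.2 CPM in Control libraries (0.74 ± 0.19, edgeR adjusted p = 0.0425). That call was lost when any 1 HSP90i library was left out (adjusted p = 0.127 to 0.163), without Control replicate 2 (adjusted p = 0.077) and with library size alone (adjusted p = 0.0895). Gsr, the glutathione reductase gene, fell in both mouse lines, by 0.84 and 1.28 on the log2 scale in MEF and HPC-7. Glrx, the glutaredoxin gene, changed by -0.58 ± 0.06 in MEF but rose by 1.08 ± 0.09 in HPC-7 and by 1.17 ± 0.16 in K562. The glutathione transferase gene Gsta4 rose in MEF, with 39.1 ± 1.82 CPM in HSP90i and 12.5 ± 0.551 CPM in Control libraries (1.64 ± 0.07).

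NADPH-producing enzymes had 2 higher and 2 lower of 5 tested in MEF and 0 higher and 2 lower of 5 in HPC-7, with medians of -0.09 and -0.16, and 80% and 40% called beside 73.4% and 73.1% of all tested genes. In HPC-7 edgeR at an unadjusted p under 0.05 gave 1 higher, and DESeq2 with adjustment 0. The MEF count of 4 was reached under none of the 14 alternatives, which gave 1 to 3. Taldo1, the transaldolase gene (-0.13 ± 0.05, edgeR adjusted p = 0.0489), lost its call in 14 of 14. The count was 1 without Control replicate 1, without HSP90i replicate 3 or with no filter on low counts, and 2 with the replicate block and without Control replicate 2 or HSP90i replicate 2. In HPC-7 the joint mouse fit called 4 in place of 2. G6pdx, the first enzyme of the pentose phosphate pathway, averaged 59.6 ± 3.38 CPM in HSP90i and 152 ± 8.14 CPM in Control MEF (-1.35 ± 0.06) and changed by -0.31 ± 0.08 in HPC-7. Tkt, the transketolase gene, fell in HPC-7 by 1.20 on the log2 scale. Detoxification genes had 6 higher and 2 lower of 8 tested in MEF and 2 higher and 0 lower of 4 in HPC-7 (medians 0.52 and 0.54, with 100% and 50% called beside the same background), where in HPC-7 0 were also lower at an unadjusted p and by DESeq2. Aldh3a1, an aldehyde dehydrogenase gene, averaged 43.2 ± 0.146 CPM in HSP90i and 1.12 ± 0.0749 CPM in Control MEF (5.23 ± 0.09). Ugdh, which makes the sugar donor for glucuronidation, changed by -1.36 ± 0.05 in MEF, while UGDH rose by 0.88 ± 0.16 in K562, a call lost without HSP90i replicate 1, 2 or 3 (adjusted p = 0.061, 0.0793 and 0.0525).

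In K562 6 of the 43 tested genes were called, or 14% beside 11.1% of all tested genes. The calls were MAFF among regulators (1 of 11 tested, lower), GLRX and SLC7A11 among glutathione genes (2 of 10, higher), IDH1 among NADPH enzymes (1 of 5, higher) and OSGIN1 and UGDH among detoxification genes (2 of 6, higher). IDH1, a cytosolic isocitrate dehydrogenase gene, changed by 0.64 ± 0.14, and its adjusted p was 0.0642 without Control replicate 2 and 0.107, 0.0966 and 0.105 when HSP90i replicate 1, 2 or 3 was left out. Of 5 thioredoxin and 6 haem and iron genes, 0 were called by edgeR. At an unadjusted p under 0.05 edgeR gave 1 thioredoxin gene higher and 1 haem and iron gene lower, and DESeq2 with adjustment gave 0 and 1. Without Control replicate 1, 6 regulators, 2 thioredoxin genes and 3 haem and iron genes were called, and without Control replicate 3, 2 regulators and 1 haem and iron gene. Without Control replicate 2, 1 glutathione gene and 0 NADPH genes were called. Without HSP90i replicate 1, 2 or 3 there was 1 glutathione gene, 0 NADPH genes and 1 detoxification gene.

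The genes most like a member were sought by Euclidean distance over 18 libraries, each value being log2 CPM minus the mean of the controls of its line, among 8322 genes tested in all 3 lines. For NFE2L2 these were SPTLC2, LIMS1 and SERPINB9, at distances of 0.40, 0.45 and 0.47. For NQO1 they were CLCF1, MAD2L1BP and RAB31, at distances of 0.67, 0.91 and 0.91. CLCF1, a cytokine gene, had log2 fold changes of -1.33 in MEF, 0.36 in HPC-7 and -0.10 in K562. HMOX1 was not tested in K562, so no neighbours were sought for it.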

How the data were processed

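RNA-seq was analysed in 18 libraries, 3 HSP90i and 3 Control in each of K562, MEF and HPC-7, grouped by their titles. The authors deposited raw read counts for each gene. The submitters' processing notes name Bowtie2, DESeq2, featureCounts, MACS2, Picard, TopHat2 2.0.13 and Trim Galore, and the builds GRCh37, GRCm38, hg38 and mm10, without saying which step used which. Count columns named DMSO were taken as the Control sample of the same number. Where a symbol had 2 identifiers, the one with more counts was used. Genes were filtered with filterByExpr, scaled with TMM and tested with edgeR 4.0.16 in R 4.3.3 (quasi-likelihood, Benjamini-Hochberg, threshold 0.05) over 11703 genes in HPC-7, 12340 in MEF and 13456 in K562. The procedures were tested on simulated data in which 200 genes changed. Far more genes were called here, 9057 in MEF and 8557 in HPC-7, so that test cannot show how the procedures handle such broad changes. Alternatives were other scalings and filters, DESeq2 1.42.0, a replicate block, each library left out and a joint mouse fit.

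The members and lists were chosen with earlier results of these data known. Named genes were all members, in the wider list the 3 largest called changes per direction and line, any regulator called in all 3 lines, and the nearest genes of NQO1 and NFE2L2. Other genes of the wider list that are named, among them Mafg, Mafk, the haem and iron genes, G6pdx, Tkt, IDH1 and K562 SLC7A11, were chosen after their values were seen, and Rbx1 and Nfe2l1 for their opposite calls in the mouse lines. The list of HSP90 ChIP-seq peaks in K562 was not used here, because no human annotation was at hand to place the members. Figures were drawn with matplotlib 3.10.9. Intervals for counts cover counting error only.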

Additional observations from a re-analysis of the deposited data

Results flagged for a closer look

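In each of the following genes the response to HSP90 inhibition differed between MEF and HPC-7 by the interaction test over 12 mouse libraries (edgeR's quasi-likelihood test, adjusted over all genes tested). Among members the difference in log2 fold change, MEF minus HPC-7, was -2.45 for Hmox1, -2.16 for Gclm, -1.59 for Nqo1, -0.90 for Nfe2l2, -0.63 for Gclc and -0.30 for Txnrd1. Among the other pathway genes that were called in opposite directions in the 2 lines, it was -3.57 for Bach2, -1.54 for Glrx, -1.48 for Mafg and -1.43 for Mafk, which were lower in MEF and higher in HPC-7. It was 1.43 for Tkt, 0.61 for Rbx1 and 0.53 for Nfe2l1, which were higher in MEF and lower in HPC-7. In MEF alone the call of Tkt (0.12 ± 0.05) was lost when any 1 library other than Control replicate 3 was left out, and that of Rbx1 (0.14 ± 0.05) without Control replicate 2 or HSP90i replicate 2. Line and dose changed together and cannot be told apart here.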

How the results depend on the processing

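Of 152 log2 fold changes of members and other pathway genes within a line, 115 kept their side of the threshold under every alternative run. These were 33 of 50 in K562, 41 of 54 in MEF and 41 of 48 in HPC-7, and 35 of 47 differences between MEF and HPC-7 did so too. Among them, called changes kept their direction, but changes that were not called could switch sign. For example, NQO1 in K562 ran from -0.2 to 0.02 and Me1 in MEF from -0.12 to 0.02. In MEF 7 to 8 members were called under the alternatives, in HPC-7 4 to 5, and 6 to 7 of the interaction. The number of members called in K562 was 2 in the main test, 0 with library size alone and 1 with upper quartile factors, and ran from 0 to 4 when single libraries were left out. The wider list in K562 had 6 called, 10 with no filter on low counts, and from 3 to 17 when single libraries were left out. FTH1 in K562, not called at -0.15, ran from -0.33 to 0.21 when single libraries were left out and was called at 0.21 without Control replicate 1. The cause was not tested. Library size alone put the median of all K562 genes at -0.13, with 26.7% of called genes higher, against 46.1% in the main scaling. Upper quartile factors put it at -0.09, with 35.3% higher.

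Whether replicate numbers pair the samples cannot be decided with 3 libraries per group. Deviations of same-numbered libraries correlated at 0.281, 0.0417 and 0.451 in K562, 0.268, -0.223 and -0.245 in MEF and 0.0064, 0.0235 and -0.0898 in HPC-7. For K562 libraries with different numbers the values were -0.162, -0.267, 0.169, -0.25, -0.387 and 0.0952, mostly below those of the same number. With the replicate block 2, 8 and 4 members were called in K562, MEF and HPC-7, 8, 38 and 29 genes of the wider list, and 6 members in the interaction. The overlap of peaks with member starts was not run. Depth limits HMOX1 and SRXN1 in K562 and Srxn1, Me1 and Nqo1 in HPC-7, all at 20 counts or fewer.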
